A study of Mus musculus with 19 samples.

Results

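CREB and its coactivators were followed through 9 of the 20436 genes listed in both count tables, the rows with the symbols Creb1, Crem, Atf1, Atf2, Crtc1, Crtc2, Crtc3, Crebbp and Ep300. The genes were taken by name, all 9 had a row in the RNA and in the ribosome-protected fragment (RPF) table, and all 9 passed the filter on low counts in both. The libraries came from acute hippocampal slices of wild-type male mice aged 28 to 42 days, treated for 5 min with 100 µM DHPG, an agonist of the group I metabotropic glutamate receptors, or with artificial cerebrospinal fluid as the basal control. Slices of both groups were then held in cycloheximide at 100 µg/ml, which halts ribosomes on the mRNA, and slices of 6 mice were pooled for each replicate, so that a library is an average over animals and over all cell types of the slice. RNA was measured in 4 basal replicates (1 to 4) and 5 DHPG replicates (1 to 5), and RPFs in replicates 1 to 5 of both groups. These replicates kept area CA3 in the slice.

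CREB is a leucine zipper transcription factor that sits on cyclic AMP response elements (CREs) in promoters and is switched on when kinases downstream of cyclic AMP and calcium phosphorylate it. Phosphorylated CREB recruits the acetyltransferases encoded by Crebbp and Ep300, and the Crtc proteins are coactivators of another kind, held in the cytoplasm by phosphorylation and 14-3-3 proteins and freed by calcineurin. In the hippocampus this pathway is known for activity-dependent transcription that lasting plasticity and memory rely on, and signalling acts mainly on the proteins, which these assays do not read.

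The element itself is TGACGTCA, which reads the same on both strands, and its half-site is TGACG, which appears as CGTCA when it lies on the opposite strand. It was searched in RefSeq promoters of build GRCm38.p6, windows from 250 bases before to 50 after a gene's start. The full element was found in 1.79% of 32851 windows and the half-site, which the full element contains, in 20.8%. Of the 9 genes 7 had a window (Crem and Crtc2 were not matched). None of these 7 windows held the full element, and 1 held a half-site, that of Atf1. The Atf1 site is shown with the elements of Sst and Scg2, the 2 described below among genes known for a CRE, and of Prkar1a and Ppp2ca, which encode a regulatory subunit of the cyclic AMP-dependent kinase and the catalytic subunit of a phosphatase. Capitals mark the half-site of Atf1 and the full element of the others, and each run is written in the direction of its gene. A further half-site at the start of the Ppp2ca run is left in lower case.
Atf1: tgaccacgcggTGACGcagcacgccgg
Sst: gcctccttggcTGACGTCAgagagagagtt
Scg2: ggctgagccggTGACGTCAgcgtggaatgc
Prkar1a: gcgaggcgcatTGACGTCAgcagccgaacg
Ppp2ca: tgacgctggcgTGACGTCAccacgccgggc
The runs lie at chr15:100227758-100227784 on the plus strand, chr16:23890874-23890903 on the minus strand, chr1:79440076-79440105 on the minus strand, chr11:109650889-109650918 on the plus strand and chr11:52098787-52098816 on the plus strand. A match describes the letters of the window, not binding, and a window with no match says nothing of the factor.

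Library totals ran from 4870813 to 7793244 counts in RNA and from 5692064 to 22092434 in RPFs, with basal and DHPG libraries spread over the same range. Levels are given as CPM, counts scaled to the effective size of their library. Marker genes of neurons, interneurons, CA1 and CA3 pyramidal cells, dentate granule cells, astrocytes, oligodendrocytes, microglia, endothelium and thalamus were all detected, with none at 0. The summed level of the 5 neuronal markers ran from 4168 to 5928 CPM in basal RNA and from 4243 to 5885 CPM in DHPG RNA. The summed level of the 5 thalamic markers ran from 129 to 158 CPM in basal RPFs and from 132 to 205 CPM in DHPG RPFs. Of the 5, 4 passed the RPF threshold as higher after DHPG, against 0.22% of all genes called in either direction. In RNA their sum ran from 86.9 to 119 CPM in basal and from 109 to 147 CPM in DHPG libraries, the changes of the 4 tested were all above 0 with a median of 0.45 log2 units, and Prkcd among them was the 1 gene called in RNA (edgeR adjusted p = 0.00444). The RPF calls fell to 0 in DESeq2 with the replicate block, without the block and without replicate 1, 2 or 4, and to 1 after ComBat or without replicate 3. Their part in the results below was not tested. In whole slices, fewer cells of a type and less RNA per cell cannot be told apart.

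Per length, Crtc1 was the most ribosome-occupied gene of the set in resting slices and the other Crtc genes the least, on the transcript lengths used here. These were those of the transcript with the longest coding sequence in GENCODE M21 (build GRCm38, the same assembly as the mm10 of the files), the whole transcript for RNA and the coding sequence less 60 bases for RPFs. Crtc1, the Crtc gene best known from neurons, lies at chr8:70382355-70439579 on the minus strand in 14 exons and stood at 110.1 ± 14.1 RPF CPM per kb (mean ± SD, n = 5 basal libraries). Atf2 (chr2:73816509-73892639, minus strand), a leucine zipper factor that pairs with Jun and is driven by stress kinases, followed at 66.8 ± 7.71. Creb1 (chr1:64532645-64604548, plus strand), which encodes CREB itself, stood at 34.9 ± 2.57 RPF CPM per kb.

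The acetyltransferase genes were lower than Creb1 on this scale. Crebbp (chr16:4081328-4213997, minus strand) stood at 22.3 ± 2.26 RPF CPM per kb and Ep300 (chr15:81585351-81652077, plus strand) at 10.7 ± 0.795. Crem, on chromosome 18, encodes activating and repressing relatives of CREB from many transcripts, and stood between them at 17.3 ± 2.17 RPF CPM per kb. Atf1 (chr15:100227819-100261244, plus strand), the closest relative of Creb1 beside Crem, stood at 8.54 ± 0.822. Crtc3 (chr7:80586627-80688877, minus strand) stood at 4.86 ± 0.661 and Crtc2 (chr3:90254163-90264125, plus strand), known best as a coactivator of glucose production in liver, at 2.95 ± 0.518. In this order each gene exceeded the next in 5 of 5 basal libraries. The ranges over libraries overlapped only between Crebbp and Crem and between Ep300 and Atf1, where the order still held within each library.

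In RNA per kb of transcript the order was another one. Atf2 stood highest at 21.5 ± 3.48 RNA CPM per kb (n = 4 basal libraries), followed by Crebbp at 19.9 ± 2.75, Crtc1 at 15.7 ± 3.68 and Ep300 at 14.1 ± 1.17. The ranges of these 4 genes overlapped from each to the next. Creb1 came next at 5.53 ± 1.08 RNA CPM per kb, below Ep300 with no overlap. Crem (3.48 ± 0.579), Crtc2 (3.19 ± 0.721) and Crtc3 (2.79 ± 0.316) followed with overlapping ranges, and Atf1 was lowest at 1.92 ± 0.255, below Crtc3 with no overlap. These per length levels depend on the transcript model. With the median over transcripts paired with a RefSeq mRNA, a choice made after seeing the data, Crem stood at 25.9 ± 3.25 RPF CPM per kb and passed Crebbp, with overlapping ranges, and no other gene left its place in the RPF order. With the median over all coding transcripts, which include short fragments, Ep300 stood first at 183 ± 13.6 RPF CPM per kb, Crtc1 second at 110.1 ± 14.1 followed by Crebbp at 82.2 ± 8.34, and Crtc3 and Crtc2 stayed lowest.

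**Figure D1:**
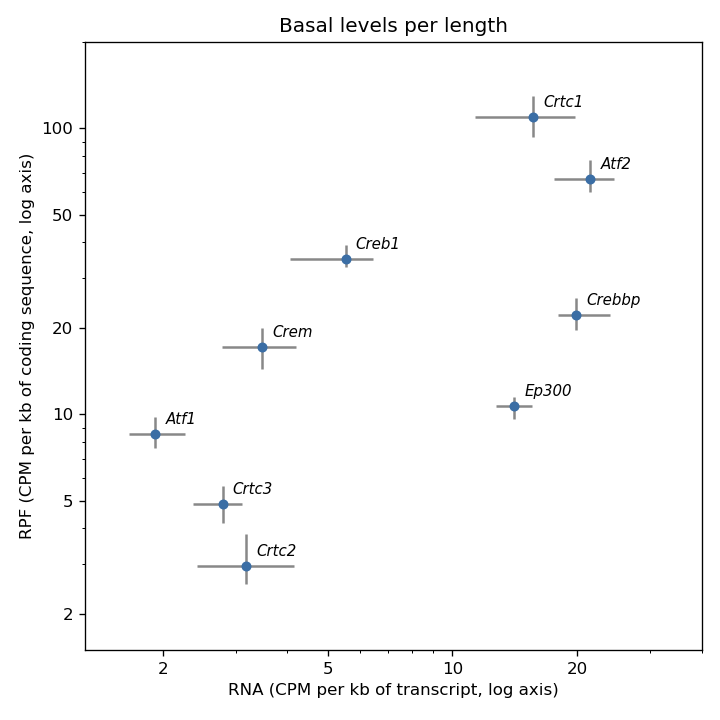
Basal level of each gene in RNA (x axis, CPM per kb of transcript) and in RPFs (y axis, CPM per kb of coding sequence less 60 bases), both on log axes, with points at the mean and bars from the lowest to the highest of 4 RNA or 5 RPF libraries. Crtc1 sits highest in RPFs and the third highest in RNA, while Crebbp and Ep300 sit near it in RNA and below it in RPFs.

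Shares within each family followed from these levels. Crtc1 made up 72.1% ± 1.90 (SD, n = 4) of the per length RNA of the 3 Crtc genes in basal slices and 93.3% ± 0.925 (SD, n = 5) of their per length RPFs. The share of Crtc2 was 14.7% ± 1.10 in RNA and 2.53% ± 0.552 in RPFs. After DHPG the share of Crtc1 was 70.6% ± 1.81 in RNA and 93.3% ± 0.501 in RPFs (SD, n = 5), each mean within the range of the basal libraries. In RNA the share of Crtc1 ran from 67.8% to 72.5% over DHPG libraries, against 70.3% to 74.3% in basal ones. The share of Crtc2 after DHPG was 17.3% ± 1.94 in RNA, from 14.3% to 19.4% over libraries, against 13.1% to 15.5% in basal ones, so that its mean lay above every basal library while the groups overlapped. In RPFs it was 2.49% ± 0.497. Creb1 held 50.4% ± 3.60 of the per length RNA of Creb1, Crem and Atf1 and 57.5% ± 2.27 of their RPFs, and Crebbp held 58.4% ± 1.67 of the RNA of the acetyltransferase pair and 67.5% ± 0.917 of the RPFs. With the median over all coding transcripts this pair turned round, Ep300 standing at 270.1 ± 22.3 RNA CPM per kb and Crebbp at 106 ± 14.7. With the RefSeq transcripts Crem RNA stood at 6.51 ± 1.08 CPM per kb and Creb1 RNA at 5.53 ± 1.08. Crem was then above Creb1 in 4 of 4 basal libraries with overlapping ranges, so the lead of Creb1 in RNA depends on the transcript model.

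The resting ratio of RPFs to RNA was then taken for each gene as log2 RPF CPM less log2 RNA CPM, in the 4 basal replicates with both assays. The median over the 12691 genes tested in both assays was -0.18. Crtc1 had the highest ratio of the 9, with 1.42, 0.79, 0.73 and 1.88 in replicates 1 to 4, a mean of 1.20 ± 0.55 (SD) that exceeded the ratio of 90.8% of genes. Every replicate lay above the median gene, and replicates 2 and 3 were the low ones. The other Crtc genes lay below the median gene in this ratio. Crtc2 had -0.70, -0.52, -1.15 and -0.27 (mean -0.66 ± 0.37, above 32.4% of genes). Crtc3 had -0.73, -1.01, -1.04 and -0.32 (mean -0.77 ± 0.33, above 28.6% of genes). The lowest replicate of Crtc1 thus lay above the highest of both. These ratios are given as descriptions, with no test, and are not scaled for length. Per length, on the transcript lengths above, the mean ratio exceeded that of 90.0% of genes for Crtc1, 22.2% for Crtc2 and 47.6% for Crtc3. Crtc3 thus lay near the median gene on that scale, and Creb1, above 88.3% of genes, lay near Crtc1.

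The leucine zipper factors lay above the median gene on average. Crem had 0.98, 1.06, 1.07 and 0.68 in replicates 1 to 4 (mean 0.95 ± 0.18, above 86.3% of genes) and Atf1 had 0.66, 0.62, 0.29 and 0.10 (mean 0.42 ± 0.26, 72.5%). Creb1 had 0.23, 0.23, 0.72 and 0.031 (mean 0.30 ± 0.29, 68.7%). Atf2 was split, with -0.24, 0.39, 0.45 and -0.26 (mean 0.086 ± 0.39, 60.5%), so that replicates 1 and 4 lay below the median gene and replicates 2 and 3 above it. The acetyltransferases were low. Ep300 had -1.03, -0.69, -0.59 and -0.96 (mean -0.82 ± 0.21, above 27.0% of genes), below the median gene in all 4 replicates. Crebbp had -0.78, -0.16, -0.27 and -0.47 (mean -0.42 ± 0.27, 40.7%), below it in 3 of 4.

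Base composition moved with this ratio, and differently from replicate to replicate. The Crtc1 transcript has 59.2% G and C, more than 92.0% of genes, and the 1524 genes within 2 percentage points of it had median ratios of -0.58, -0.95, -1.04 and -0.44 in replicates 1 to 4, lowest in the replicates where Crtc1 was lowest. Against these genes Crtc1 was higher by 1.96 ± 0.26 (SD, n = 4), a narrower spread than that of its ratio, and it exceeded 97.4% of them. Atf2 (40.5% G and C) and Creb1 (39.9%) lie at the other end, where the median ratio of like genes was high, 0.28, 0.70, 0.88 and 0.13 for those near Atf2. Atf2 differed from its like genes by -0.41 ± 0.086 and Creb1 by -0.22 ± 0.19, both below them in 4 of 4 replicates although above the median of all genes. Like genes were matched for composition and not for length. Per length, the mean ratio of Creb1 exceeded that of 88.3% of all genes and the mean ratio of Atf2 that of 72.0%.

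The remaining members were compared in the same way. Crem lay above its like genes by 0.67 ± 0.15 (SD, n = 4) and Ep300 below its own by -0.60 ± 0.23, each in 4 of 4 replicates. Atf1 differed by 0.28 ± 0.31, Crebbp by -0.18 ± 0.30, Crtc2 by -0.077 ± 0.26 and Crtc3 by -0.20 ± 0.14, and none of these had 1 sign in every replicate. The low ratios of Crtc2 and Crtc3 were near those of genes of like composition, and the ratio of Crtc1 lay above them. The part of base composition in the ratios was not tested.

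**Figure D2:**
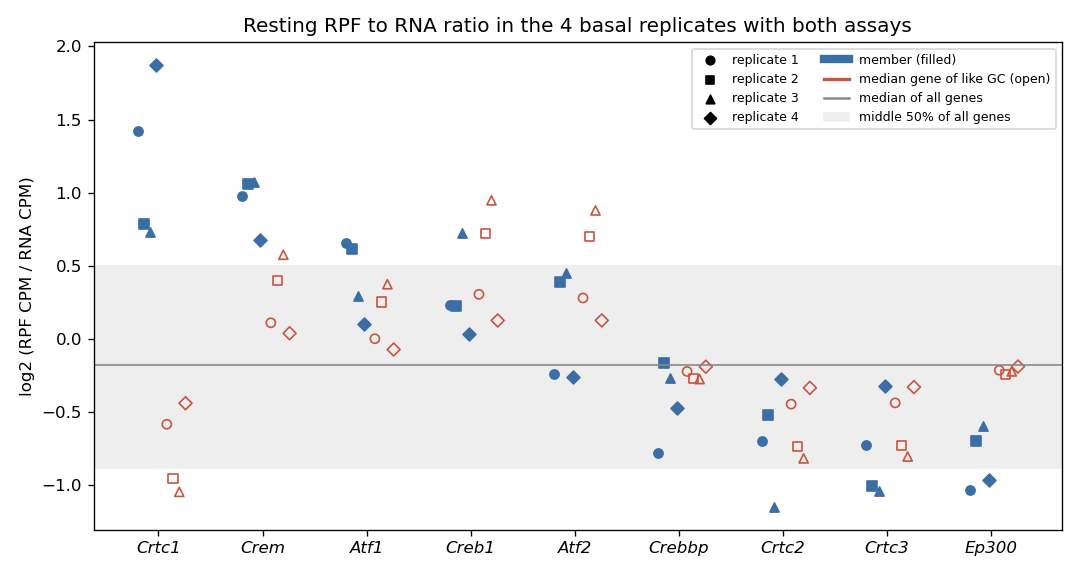
Resting log2 ratio of RPF CPM to RNA CPM (y axis) of each gene in basal replicates 1 to 4 (filled symbols) beside the median of genes within 2 percentage points of its GC content (open symbols), with the median (line) and middle 50% (band) of all genes. Crtc1 lies 1.96 log2 units above its like genes on average, and Atf2 and Creb1 lie below theirs. The ratios are not scaled for length.

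The comparison of DHPG with basal slices asked whether 5 min of receptor activation moved the RNA, the RPFs or the ratio of these genes. None of the 9 passed in any of the 3 (edgeR quasi-likelihood test with the replicate number as block, adjusted p under 0.01 in RNA and under 0.05 in RPFs and in the ratio). Over all genes 0.00773% were called in RNA, 0.22% in RPFs and 0% in the ratio, so that none among 9 is what these rates give. At an unadjusted p under 0.05, 2 of the 9 were higher in RNA (Crtc1 and Crtc2, against 5.2% of all genes higher), 0 in RPFs (against 6.55%) and 0 in the ratio (against 6.69% in either direction). DESeq2 with the block or after batch correction by ComBat called 0 of 9 in RNA and in RPFs, though at least Crtc2 RNA had no adjusted p after ComBat. The fitted change was above 0 for 8 of 9 in RNA (all but Creb1), with a median of 0.096 log2 units against 0.0068 for all genes, where 52.1% were above 0. It was above 0 for 8 of 9 in RPFs (all but Atf2), with a median of 0.051 against 0.0031 and 51.4%, and for 2 of 9 in the ratio (Creb1 and Crtc3), with a median of -0.075 against -0.0017 and 49.5%. These medians moved when a replicate was left out, from 0.054 (without replicate 4) to 0.16 (without replicate 2) in RNA with 6 to 9 above 0, from 0.014 (without replicate 3) to 0.059 (without replicate 1) in RPFs with 6 to 9 above 0, and from -0.15 (without replicate 2) to -0.028 (without replicate 4) in the ratio with 1 to 4 above 0. Basal and DHPG libraries overlapped for all 9 genes in both assays. Among all genes they did not overlap for 0.209% higher and 0.302% lower in RNA, and for 0.159% higher and 0.235% lower in RPFs.

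**Figure D3:**
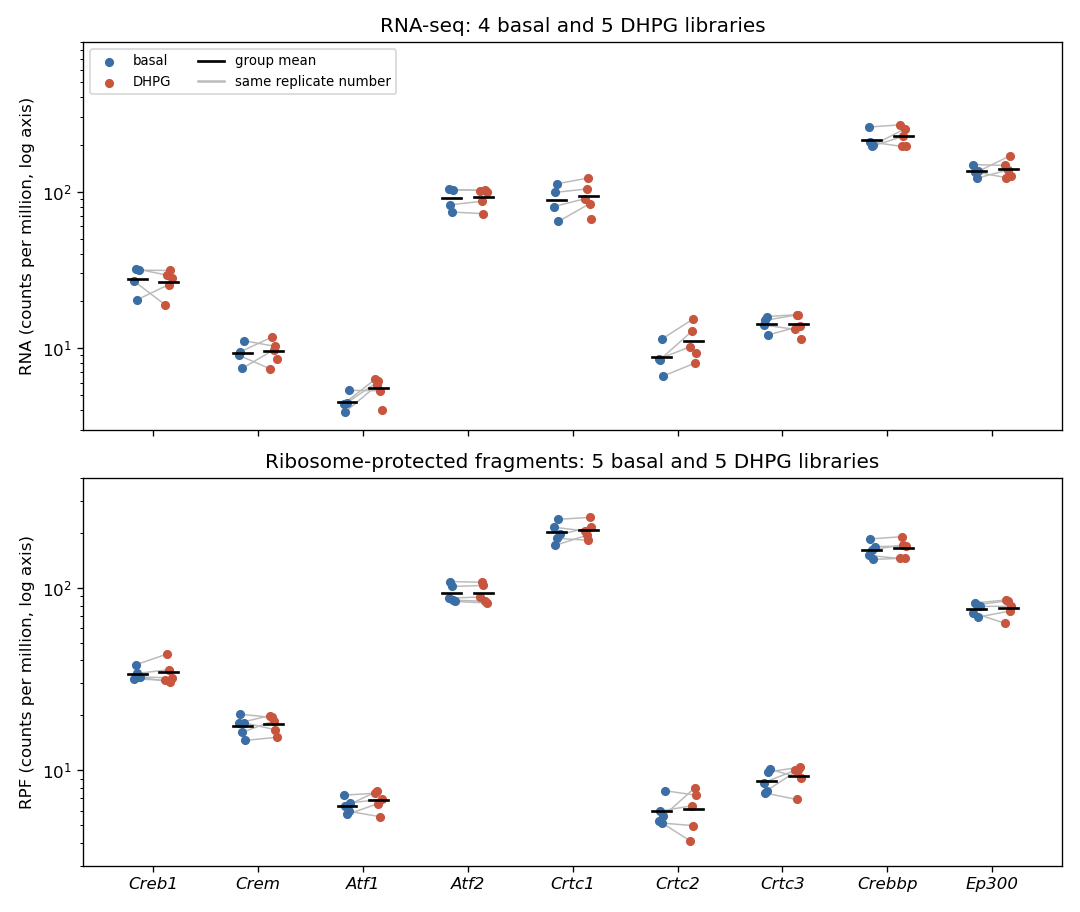
CPM (log axis) of each gene in every library, RNA above and RPFs below, with basal libraries in blue, DHPG libraries in red, black bars at the group means and grey lines joining libraries of the same replicate number. The 2 groups overlap for every gene, and the lines of Crtc1 and Crtc2 rise in 4 of 4 RNA pairs.

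Among the Crtc genes, Crtc2 and Crtc1 had the lowest unadjusted p of the set in RNA. Crtc2 RNA stood at 8.50, 8.45, 11.4 and 6.64 CPM in basal replicates 1 to 4 and at 10.2, 12.8, 15.4, 8.01 and 9.25 CPM in DHPG replicates 1 to 5, from 41 to 90 counts per library. DHPG was higher in 4 of 4 pairs, while the groups overlapped, with basal replicate 3 above DHPG replicates 1, 4 and 5. The difference was 0.39 ± 0.14 (SE) log2 units (95% interval 0.091 to 0.68, edgeR adjusted p = 0.555). Crtc2 RPFs stood at 5.28, 5.97, 5.13, 5.60 and 7.72 CPM and after DHPG at 4.10, 6.38, 4.97, 8.01 and 7.29 CPM, higher in 2 of 5 pairs. The RPF difference was 0.051 ± 0.11 (SE) (95% interval -0.18 to 0.28), and the RPF to RNA ratio differed by -0.34 ± 0.18 (SE) (95% interval -0.70 to 0.026, edgeR adjusted p = 0.749).

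Crtc1 RNA stood at 80.2, 98.9, 112 and 64.5 CPM in basal replicates and at 90.2, 104, 122, 83.9 and 66.9 CPM after DHPG. It too was higher in 4 of 4 pairs, as were 8.67% of all genes, and the replicates differed more than the treatments. The difference was 0.19 ± 0.075 (SE) log2 units (95% interval 0.031 to 0.34, edgeR adjusted p = 0.566). Without the replicate block the difference was 0.072 for Crtc1 and 0.34 for Crtc2. Neither was under 0.05 before adjustment in that fit or in DESeq2 with the block, and Crtc1 was not without replicate 1 or without replicate 4, where its difference was 0.12. The median RNA difference of genes of like GC content was 0.059 around Crtc1 and 0.045 around Crtc2, above the 0.0068 of all genes, and its part in the 2 values was not tested.

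Crtc1 RPFs, the highest of the Crtc genes, stood at 215, 171, 187, 238 and 197 CPM in basal replicates 1 to 5 and at 205, 194, 183, 243 and 215 CPM after DHPG. The groups covered nearly the same range and DHPG was higher in 3 of 5 pairs. The difference of 0.053 ± 0.034 (SE) log2 units had a 95% interval of -0.016 to 0.12 (edgeR adjusted p = 0.612), and the ratio differed by -0.13 ± 0.078 (SE). Crtc3 RNA stood at 14.1, 15.0, 15.9 and 12.1 CPM and after DHPG at 13.2, 16.3, 16.4, 13.8 and 11.4 CPM, a difference of 0.059 ± 0.12 (SE), and its RPFs differed by 0.093 ± 0.10 (SE) with 3 of 5 pairs higher.

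For the factors themselves no difference stood clear of the replicates. Creb1 RNA stood at 26.8, 32.1, 20.4 and 31.5 CPM in basal replicates 1 to 4 and at 18.8, 29.3, 25.4, 31.3 and 28.1 CPM in DHPG replicates 1 to 5, lower in 3 of 4 pairs and higher in replicate 3. The difference was -0.084 ± 0.11 (SE) log2 units (95% interval -0.31 to 0.14). Creb1 RPFs stood at 31.7, 37.8, 34.0, 32.3 and 32.5 CPM and after DHPG at 31.2, 43.4, 35.5, 30.5 and 32.1 CPM. Replicate 2 was the highest in both groups, 2 of 5 pairs were higher, and the difference was 0.051 ± 0.052 (SE) (95% interval -0.055 to 0.16, edgeR adjusted p = 0.788).

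Atf2 was the most closely bounded of the zipper factors. Its RPFs stood at 87.9, 108, 102, 85.6 and 84.2 CPM in basal replicates and at 89.0, 107, 103, 84.4 and 82.6 CPM after DHPG, so that each pair was nearly level while replicates 2 and 3 stood above the rest in both groups. The difference was -0.0046 ± 0.036 (SE) log2 units, with a 95% interval of -0.078 to 0.069. In RNA replicates 2 and 3 were instead the low ones, at 103, 82.4, 74.1 and 102 CPM in basal replicates 1 to 4 and 102, 86.8, 72.3, 102 and 98.9 CPM after DHPG, with a difference of 0.0014 ± 0.073 (SE).

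Crem and Atf1 were measured from fewer counts. Crem RNA stood at 8.99, 9.48, 7.41 and 11.2 CPM and after DHPG at 7.36, 11.7, 9.72, 10.3 and 8.58 CPM, higher in 2 of 4 pairs, with a difference of 0.054 ± 0.15 (SE) log2 units. Its RPFs differed by 0.05 ± 0.068 (SE) with 3 of 5 pairs higher. Atf1 RNA stood at 4.41, 3.91, 4.48 and 5.36 CPM and after DHPG at 6.32, 5.77, 6.14, 5.34 and 4.04 CPM, from 19 to 49 counts per library. It was higher in 3 of 4 pairs, and the difference of 0.36 ± 0.19 (SE) had a 95% interval of -0.032 to 0.75 (edgeR adjusted p = 0.653). Atf1 RPFs differed by 0.13 ± 0.11 (SE) with 4 of 5 pairs higher.

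Of the acetyltransferase genes, Crebbp gave the narrowest RPF interval of the 9 after DHPG. Crebbp RPFs stood at 151, 186, 162, 143 and 168 CPM in basal replicates 1 to 5 and at 145, 191, 172, 145 and 169 CPM after DHPG, higher in 4 of 5 pairs. The difference was 0.028 ± 0.033 (SE) log2 units with a 95% interval of -0.039 to 0.094. Crebbp RNA stood at 259, 208, 195 and 198 CPM and after DHPG at 267, 195, 225, 252 and 197 CPM, a difference of 0.13 ± 0.074 (SE) (edgeR adjusted p = 0.669). Ep300 RNA was highest in DHPG replicate 4 at 169 CPM, its RNA differed by 0.10 ± 0.077 (SE) and its RPFs by 0.03 ± 0.04 (SE), with 4 of 5 RPF pairs higher. The RPF to RNA ratio differed by -0.11 ± 0.075 (SE) for Crebbp and -0.075 ± 0.083 (SE) for Ep300, and neither passed.

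**Figure D4:**
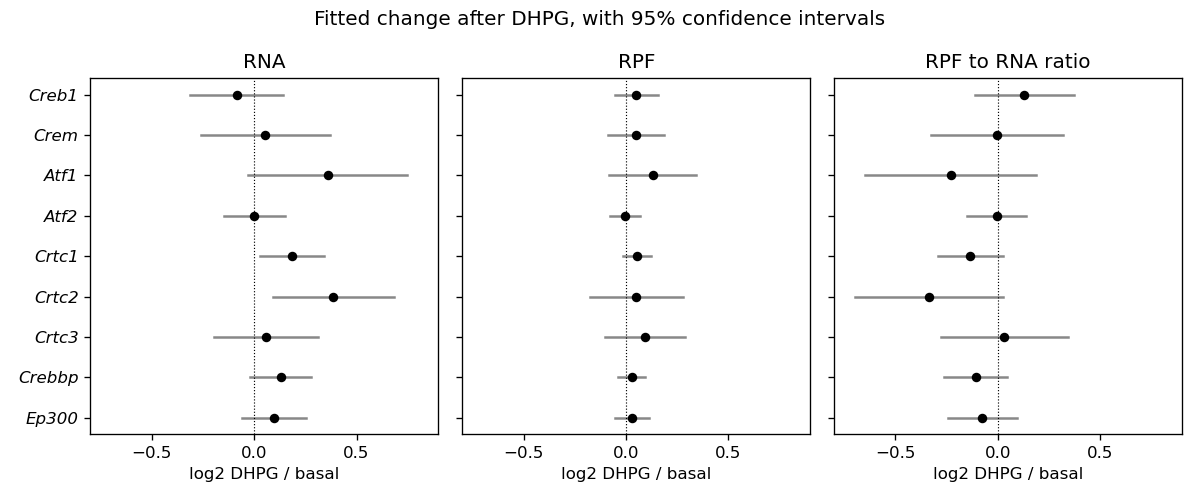
Fitted log2 difference of DHPG against basal slices (x axis) in RNA, in RPFs and in the RPF to RNA ratio, with points at the estimate and lines over the 95% confidence interval. The RPF estimates lie between -0.0046 and 0.13, and only the RNA intervals of Crtc1 and Crtc2 leave 0 out, before adjustment over all genes.

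The genes that act on these proteins were read from lists chosen by function. Of 29 genes of cyclic AMP and calcium signalling to CREB, 0 were called in RNA and 0 in RPFs. Their RPF changes were above 0 for 8 of 29, against 51.4% of all genes, with a median of -0.017 against 0.0031. Before adjustment, an edgeR p under 0.05 was reached by 3 higher and 1 lower in RNA, and by 2 higher and 2 lower in RPFs. Of all genes 5.2% were higher in RNA and 6.55% in RPFs at that p. The share of all genes lower at that p was not counted, for this list or the others. Those with most RPFs included Prkar1a, which encodes a regulatory subunit of the cyclic AMP-dependent kinase (RPF change -0.039 ± 0.028 (SE)) and Prkar1b, a neuronal regulatory subunit (-0.018 ± 0.03 (SE)). Of 22 genes that hold or free the Crtc proteins, 0 were called in either assay, with medians of -0.018 in RNA and -0.0097 in RPFs. At an unadjusted p under 0.05, 1 was higher and 1 lower in RNA and 0 in RPFs, beside the same shares of all genes. Its most occupied genes were Ywhaz and Ywhag, which encode 14-3-3 proteins (RPF changes 0.0019 ± 0.029 (SE) and 0.0055 ± 0.029 (SE)), and Ppp3ca, the catalytic subunit of calcineurin (-0.009 ± 0.029 (SE)).

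Other leucine zipper factors of the CREB and ATF families gave 0 calls among 12 genes tested in RNA and 14 in RPFs. At an edgeR p under 0.05 before adjustment, 1 was higher in RNA and 2 in RPFs, and 0 lower. Of all genes 5.2% were higher in RNA and 6.55% in RPFs. Atf6b and Atf6, sensors of endoplasmic reticulum stress, differed by 0.13 ± 0.036 (SE) and 0.025 ± 0.04 (SE) in RPFs, and Atf3, a stress-induced factor, by 0.014 ± 0.046 (SE). Atf6b was higher in 5 of 5 pairs with an edgeR adjusted p of 0.114. After ComBat and DESeq2 it passed (adjusted p = 0.00437). Of 22 further coactivators, phosphatases and corepressors, 20 were tested in RNA and 21 in RPFs and 0 were called. At an unadjusted p under 0.05, 3 were higher in RNA, against 5.2% of all genes, and 1 lower in RPFs. Ppp2ca and Ppp2cb, the catalytic subunits of a phosphatase that acts on CREB, differed by 0.018 ± 0.03 (SE) and -0.0018 ± 0.036 (SE) in RPFs. The nuclear receptor coactivator Ncoa1 differed by -0.024 ± 0.031 (SE). These 0 calls in 4 lists depended on the processing. After ComBat and DESeq2 there were 3 of 29 signalling genes called in RNA and 2 in RPFs, 1 of 22 genes of Crtc control in each (Ywhag in RNA, adjusted p = 0.00984), 1 of 14 leucine zipper factors in RPFs and 1 of 20 further cofactors in RNA, and with no filter or without replicate 2 there was 1 signalling gene called in RNA.

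Among genes known for CREB sites in their promoters, 1 was called. The list holds 32 genes, Crem among them, and was chosen for the element, which was found in 7 of its 28 promoter windows. It was drawn up with earlier results of these data known. Many of its genes are also immediate early genes, which an earlier report on these data had shown. The counts below are therefore descriptions and no independent test of genes with the element. In RNA 27 of the 30 tested were above 0, against 52.1% of all genes, with a median of 0.11 against 0.0068. Before adjustment (p under 0.05) 9 were higher, against 5.2% of all genes, and 0 lower. In RNA 0 were called (DESeq2 with the block also called 0, no filter 1 and ComBat 2). In RPFs 27 of 32 were above 0, against 51.4% of all genes, with a median of 0.055 against 0.0031. Before adjustment 13 were higher, against 6.55% of all genes, and 0 lower. In RPFs 1 was called, against 0.22% of all genes, and DESeq2 with the block called 3 and ComBat 6. These counts rested in part on replicate 4. Without it the RNA median was 0.042, with 19 of 29 above 0 and 3 higher before adjustment, and the RPF median was 0.018, with 20 of 32 above 0 and 5 higher before adjustment. Without replicate 3 the medians were 0.18 in RNA and 0.10 in RPFs, with 4 called in RPFs, and without replicate 5 there were 8 higher before adjustment in RPFs. Without the replicate block 0 genes in RNA and 1 in RPFs were under 0.05 before adjustment. The RPF to RNA ratio of the 30 genes had a median of -0.10 and 8 above 0 (-0.040 without replicate 4 and -0.034 without the replicate block). At rest these genes were well occupied, with a median log2 ratio of 0.86 and 23 of 30 above the median gene.

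The gene called was Sst, which encodes the neuropeptide somatostatin of hippocampal interneurons and whose promoter is the classical source of the CRE. Its RPFs stood at 382, 370.2, 351, 361 and 349 CPM in basal replicates 1 to 5 and at 415, 429, 392, 408 and 429 CPM after DHPG. Every DHPG library lay above every basal one, as in 0.159% of all genes, and all 5 pairs were higher, as in 5.16%. The RPF difference was 0.20 ± 0.03 (SE) log2 units (edgeR adjusted p = 6.60e-04). The call was lost without the replicate block, where the difference was 0.19 (edgeR adjusted p = 0.99997). Sst RNA stood at 93.3, 117, 122 and 77.8 CPM and after DHPG at 98.7, 102, 105, 69.6 and 75.7 CPM, higher in 1 of 4 pairs. The RNA difference of -0.12 ± 0.075 (SE) did not pass (edgeR adjusted p = 0.703). The ratio differed by 0.31 ± 0.074 (SE), with an adjusted p of 0.350 over all genes. Sst is itself 1 of the 5 interneuron markers. Their summed RPFs ran from 1104 to 1209 CPM in basal and from 1173 to 1272 CPM in DHPG libraries. The RPF changes of the 5 had a median of -0.00015, with 2 of 5 above 0, Sst among them, and Sst was the only one called. The part of the marker levels in the Sst value was not tested.

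The immediate early genes Fos and Egr1 and the secretory granule gene Scg2 were the list's most occupied. Egr1 RNA stood at 145, 133, 143 and 71.0 CPM in basal replicates 1 to 4 and at 194, 162, 154, 117 and 75.5 CPM after DHPG, a difference of 0.38 ± 0.081 (SE) log2 units that did not pass (edgeR adjusted p = 0.145). It passed with no filter on low counts (0.00363), without replicate 2 (0.00613) and after ComBat and DESeq2 (1.60e-04). Its RPFs differed by 0.075 ± 0.035 (SE), called after ComBat and DESeq2 (adjusted p = 0.0434). Fos differed by 0.22 ± 0.075 (SE) in RNA and 0.086 ± 0.038 (SE) in RPFs (adjusted p = 0.398 in RPFs). Scg2 differed by 0.11 ± 0.029 (SE) in RPFs, higher in 5 of 5 pairs (adjusted p = 0.114). It passed in DESeq2 with the replicate block (adjusted p = 0.0248) and after ComBat (1.24e-06).

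**Figure D5:**
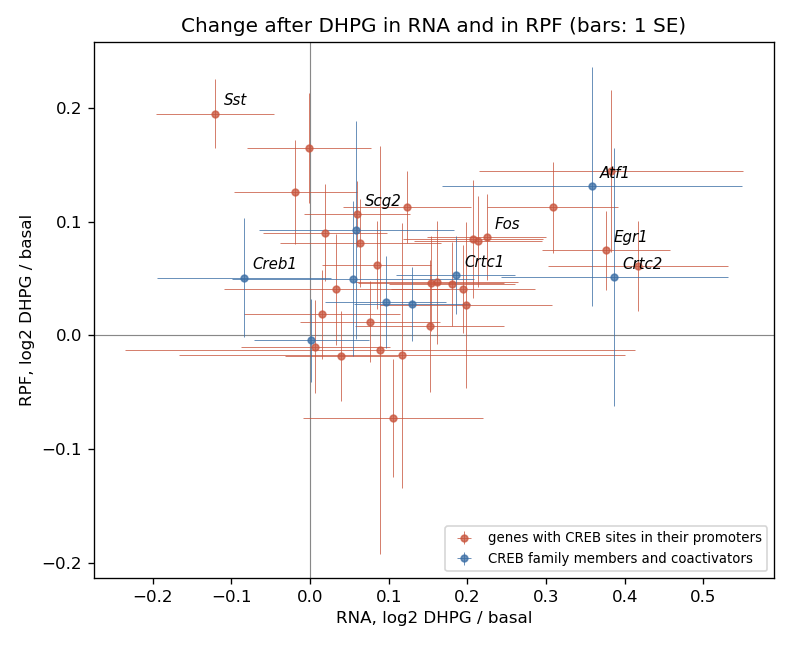
Fitted log2 difference of DHPG against basal in RNA (x axis) and RPFs (y axis) for the CREB family members and coactivators (blue) and for the other genes with CREB sites tested in both assays (red), with bars of 1 SE. Sst, at 0.20 in RPFs and -0.12 in RNA, is the gene that passed, and most red points lie to the right of and above 0.

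How the 9 genes moved from library to library was compared with all other genes by the root mean square difference of their profiles over the 19 libraries, each profile in log2 CPM less the gene's own mean within an assay. Crebbp and Ep300 lay close together. Of 12690 other genes Ep300 was the second closest to Crebbp, at 0.0809 log2 units, just behind Asxl1 at 0.0801, and Crebbp was the fifth closest to Ep300, whose nearest gene was Scaf4 at 0.0733. The median distance to all genes was 0.257 from Crebbp. The Crtc genes were farther from each other. The gene nearest to Crtc1 was Mef2d at 0.0696, and Crtc3, its closest Crtc gene, ranked 555 at 0.164, against a median distance of 0.298 to all genes. Crtc1 ranked 383 from Crtc2. The nearest genes were Ap5s1 for Crtc2 (0.178) and Hunk for Crtc3 (0.102). Crtc2 and Crtc3 had far fewer counts per library than Crebbp and Ep300, and the part of sampling noise in their distances was not tested.

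Creb1 and Crem ranked 86 and 75 in each other's order, at 0.153 log2 units. Their nearest genes were Fam126b for Creb1 (0.113) and Chpt1 for Crem (0.120). Atf2 had the nearest neighbour of all 9, Tmem106b at 0.0542, and Atf1 was nearest to Lasp1 at 0.128. These distances are descriptions over libraries that share replicates, depth and base composition.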

How the data were processed

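RNA-seq (4 basal, 5 DHPG) and ribosome profiling (5 and 5) libraries of wild-type hippocampal slices were analysed. The values deposited are expected counts from RSEM at gene level, as whole numbers, which the authors made from RPFs aligned to coding sequences without their first and last 30 bases and from RNA aligned to whole transcripts. Their notes name cutadapt, Bowtie2, TopHat2, RSEM and DESeq2 and the build mm10. They kept uniquely mapped reads, removed PCR duplicates by molecular identifier, digested with RNases A and T1, and depleted ribosomal RNA. Uniquely mapped reads lose sequence shared by paralogs. Strand handling in RNA counting is not given in the sources used here. Depth was 4870813 to 7793244 counts in RNA and 5692064 to 22092434 in RPFs. 12 columns that match no sample were not used.

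The deposited counts were tested with edgeR 4.0.16 (R 4.3.3): filterByExpr, TMM scaling, quasi-likelihood F test with the replicate number as block, and Benjamini-Hochberg adjustment over all genes, with thresholds of 0.01 in RNA and 0.05 in RPFs and in the ratio. The ratio was tested as the interaction of assay and treatment over 19 libraries, with a block per assay and replicate. DHPG RNA replicate 5 has no basal partner and carries no weight in the blocked RNA contrast. The replicate number comes from the labels and the study corrects by it. Deviations of same-numbered libraries correlated at 0.31 to 0.74 in RNA and 0.26 to 0.52 in RPFs. Where the labels do not say which animals a replicate pools, p-values measure the spread between these libraries. Levels used log2 CPM with a prior count of 2. Lengths came from GENCODE M21, promoters from RefSeq GRCm38.p6. The scripts were tested on simulated counts.

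Named genes are the 9 members, the 3 genes of each list with most basal RPFs, every list gene past a threshold, and each member's nearest gene by profile. For 1 list, 1 gene that this rule names is not reported here. Members and lists were chosen with earlier results of these data known, and the comparison with genes of like GC content was added after seeing the data. Of 2 lists, 1 gene each had no row. Alternatives were DESeq2 1.42.0 (with the block, or after ComBat of sva 3.50.0), limma 3.58.1 on pair differences, other scaling, filters and thresholds, no block, leaving out each replicate, and other transcript lengths. The DESeq2 fit after ComBat held treatment without the block, so its p-values take no account of the batch correction.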

Additional observations from a re-analysis of the deposited data

How the results depend on the processing

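In every alternative run, 0 of the 9 genes passed in RNA, RPFs or the ratio. The lowest adjusted p of a member over the alternatives was 0.0490, for Crtc1 RNA after ComBat and DESeq2, above the 0.01 used for RNA. The counts over all genes depended on the processing. In RNA, where 1 gene was called, there were 7 with no filter, 0 with at least 10 counts in every library, 0 with DESeq2 and the block, 110 after ComBat and 0 to 22 when a replicate was left out. In RPFs, where 29 were called, there were 96 with no filter, 427 after ComBat, 8 at a threshold of 0.01 and 3 to 71 when a replicate was left out. In the ratio, where 0 were called (849 at an unadjusted p under 0.05), there were 3 with no filter and 0 to 8 when a replicate was left out.

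Without the replicate block 0 genes were called in RNA and 0 in RPFs, and Sst lost its call (0.19). Some signs changed in that fit, which in RNA and in the ratio also gives weight to the unpaired DHPG RNA replicate 5. The difference was -0.0096 for Crtc3 RNA and 0.017 for Ppp3ca RNA, and the change of the ratio was 0.011 for Crem, -0.030 for Ppp3ca and 0.0072 for Atf6b. The same-numbered libraries were treated as pairs, and RNA replicate 2 correlated better with another number (0.47) than with its own (0.31).

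Atf2 RNA was -0.0059 with no filter, -0.0054 with at least 10 counts and -0.0045 after ComBat. Ywhaz RPFs were -0.00073 after ComBat, and the Atf6 ratio changed by 0.00047 in limma on pair differences. When each replicate was left out in turn, RNA differences with a change of sign ran from -0.0198 to 0.0128 for Atf2, from -0.20 to 0.0441 for Creb1, from -0.0461 to 0.16 for Crem and from -0.0486 to 0.0351 for Ppp3ca. The RPF differences with a change of sign ran from -0.0129 to 0.000618 for Atf2, from -0.0288 to 0.0933 for Atf3, from -0.0119 to 0.0469 for Atf6, from -0.00213 to 0.0754 for Creb1, from -0.0141 to 0.0874 for Crem, from -0.0463 to 0.0921 for Crtc2, from -0.0259 to 0.16 for Crtc3, from -0.0103 to 0.0367 for Ppp2ca, from -0.0234 to 0.022 for Ppp2cb, from -0.0307 to 0.00508 for Ppp3ca, from -0.0356 to 0.00169 for Prkar1b, from -0.00834 to 0.0179 for Ywhag and from -0.0148 to 0.0144 for Ywhaz. The changes of the ratio with a change of sign ran from -0.0303 to 0.0137 for Atf2, from -0.0363 to 0.00989 for Atf6, from -0.15 to 0.0422 for Atf6b, from -0.12 to 0.11 for Crem, from -0.10 to 0.10 for Crtc3, from -0.0718 to 0.0502 for Ppp3ca and from -0.0051 to 0.0442 for Prkar1b.

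Per length, resting log2 ratios were 2.68 for Creb1, 2.34 for Crem, 2.08 for Atf1, 1.67 for Atf2, 2.84 for Crtc1, -0.21 for Crtc2, 0.73 for Crtc3, 0.15 for Crebbp and -0.41 for Ep300, against a median gene of 0.82, since RPFs are then spread over the coding sequence alone. With RefSeq transcripts, chosen after seeing the data, they were 2.75 for Creb1, 2.02 for Crem, 2.08 for Atf1, 1.77 for Atf2, 2.84 for Crtc1, -0.21 for Crtc2, 0.73 for Crtc3, 0.15 for Crebbp and -0.41 for Ep300. Crem levels per kb were then 6.51 in RNA and 25.9 in RPFs. The median over all coding transcripts, which includes short fragments (499 bases for Ep300), gave RNA levels per kb of 19.4 for Creb1, 8.29 for Crem, 7.87 for Atf1, 105.9 for Crebbp and 270.1 for Ep300, and RPF levels of 23.3 for Crem, 25.6 for Atf1, 82.2 for Crebbp and 183 for Ep300. Precision is limited by counts for Crtc2, Crtc3, Atf1 and Crem, and by 4 RNA pairs for all genes.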
